A study of Homo sapiens with 8 samples.

Results

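Guides against hydroxysteroid dehydrogenases and other enzymes of steroid metabolism were followed in a CRISPR screen for regulators of PRMT5 protein. They were chosen by gene symbol, as all sgRNAs whose target is named HSD followed by a number, SRD5A, STS or STAR. This gave 77 of the 10429 sgRNAs in the table, 7 against each of 11 genes, and 0 sgRNAs against STAR. The remaining sgRNAs targeted other genes, up to 1420 genes in all, or were among 500 control sgRNAs. The cells were of COV362, an established human line of high-grade serous ovarian cancer, made resistant to platinum chemotherapy and to express Cas9, which cuts the genome where an sgRNA matches and so often disrupts the gene. Transduced cells were selected with puromycin, divided into 4 replicate cultures, stained for PRMT5 inside the cell and sorted into the cells with the most (PRMT5hi) and the least (PRMT5lo) staining. Each population gave 4 libraries of genomic DNA, and the labels give both the same genotype, WT. Because the split came after transduction, the 4 cultures shared one pool of transduced cells, and p-values cover no more than the variation that arose among them.

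Steroid hormones are made from cholesterol by cytochrome P450 enzymes and by hydroxysteroid dehydrogenases, which oxidize or reduce a hydroxyl or keto group on the steroid and thereby switch a hormone between its active and inactive form. HSD3B2 acts early, in the step that turns pregnenolone into progesterone in adrenal gland and gonads. HSD11B1 and HSD11B2 work in opposite directions, the first making cortisol from cortisone and the second inactivating cortisol. HSD17B1 makes estradiol from estrone, HSD17B11 and HSD17B14 act on the same hydroxyl of androgens and estrogens, and HSD17B10 is a mitochondrial member of the family that breaks down isoleucine and is also a subunit of mitochondrial RNase P, which processes mitochondrial tRNAs. SRD5A1 and SRD5A2 are 5-alpha reductases that make dihydrotestosterone, whereas SRD5A3 supplies dolichol for N-glycosylation. STS, the steroid sulfatase, frees estrogens and androgens from their sulfated stores.

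In the GRCh38.p14 annotation HSD3B2 is on chromosome 1 from 119414931 to 119423034 and HSD11B1 on the same chromosome from 209686179 to 209734929. HSD17B10 (53431258 to 53434376) and STS (7147290 to 7354641) are both on chromosome X. SRD5A3 (55346242 to 55373100) and HSD17B11 (87336515 to 87391188) share chromosome 4. The others are SRD5A2 on chromosome 2 (31522480 to 31663009), SRD5A1 on chromosome 5 (6633440 to 6674386), HSD11B2 on chromosome 16 (67429801 to 67437553), HSD17B1 on chromosome 17 (42552923 to 42555214) and HSD17B14 on chromosome 19 (48813018 to 48836491). The sgRNAs are identified below by their number within the gene. Their sequences were not analysed here, so the exon that each cuts is not given and cuts in related genes were not tested.

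Abundance is given in CPM, reads scaled to the same total of mapped reads in each population, as the authors' mean over the 4 libraries of a population, since no value of a single library was analysed here. The log2 ratio of an sgRNA is log2 of CPM + 1 in PRMT5lo over CPM + 1 in PRMT5hi, so a positive ratio marks more of the sgRNA among cells with little PRMT5. The columns of the table do not name the populations. The direction follows the legend of the study's plot, while its methods text gives the opposite sign. Each ratio has a standard error (SE) from the authors' variances over libraries, and each gene mean has an SD over its 7 sgRNAs, which share a target and are not replicates. The recovered depth was 4041715 reads per PRMT5hi library and 4779349 per PRMT5lo library, or 388 and 458 reads per sgRNA. Reads were amplified by PCR with no molecular identifiers and are not independent molecules, so limits from read counts cover counting error only. Without values of single libraries no exact test over the libraries could be run. All p-values rest on the pooled variances.

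The sgRNAs against steroid enzymes were spread evenly around no difference. Of the 77, 39 were more abundant in PRMT5lo, 37 in PRMT5hi and 1 had no read in either. Their median log2 ratio was 0.0035 (SD 0.30 over sgRNAs), against -0.0018 (SD 0.29) over the 9929 targeting sgRNAs and 0.011 (SD 0.25) over the controls. Single ratios ran from -0.70 to 0.91. At a one-sided p under 0.05, 8 sgRNAs leaned to PRMT5lo, where 5.66% of targeting sgRNAs did, and 4 leaned to PRMT5hi, where 6.00% did. Those 8 sgRNAs are 10.4% of the members, and the share among control sgRNAs was 9.0%. They belonged to HSD3B2 (4), HSD17B11 (2), HSD17B14 (1) and SRD5A2 (1), and the 4 in the other direction to SRD5A2 (2) and STS (2). None of the 77 passed a two-sided p of 0.05 adjusted by Benjamini-Hochberg over all sgRNAs, the smallest being 0.0793, and 5 of all targeting sgRNAs (0.0504%) did.

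One of the 11 genes, HSD3B2, passed the limits of the plot's legend toward PRMT5lo, a one-sided p under 0.01 from Fisher's method with a mean log2 ratio above 0.25. Over all genes 10 of 1420 (0.704%) passed them. The methods text sets a stricter p for PRMT5lo, 0.001. At that limit none of the 11 genes passed toward PRMT5lo, HSD3B2 included, and 2 of all genes (0.141%) did. The limit is taken here by the name of the population. By sign, the methods text attaches it to negative ratios, and a p of 0.01 to ratios above 0.25, limits that HSD3B2 met. Calls below are at the legend's limits. None of the 11 passed toward PRMT5hi, where 12 genes (0.845%) did. At a p under 0.05 alone, HSD3B2 was again the only member toward PRMT5lo (8.59% of genes), while SRD5A2 and STS were the members toward PRMT5hi (9.30% of genes). No member passed an adjusted p of 0.05 over the 1420 genes. The gene means ran from -0.27 for HSD17B10 to 0.30 for HSD3B2, with a median of 0.0021 and 6 of 11 above 0, against a median of -0.0033 over all genes, of which 48.5% were above 0. For scale, the mean of KEAP1, a gene among those that the study followed up, was -0.62 (SD 0.27). Of its sgRNAs, 7 of 7 were more abundant in the column read as PRMT5hi.

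On average, sgRNAs against HSD3B2 were 1.23-fold more abundant in PRMT5lo. sgRNA 7 stood at 30.4 CPM in PRMT5hi and 57.9 CPM in PRMT5lo, a 1.88-fold difference (log2 ratio 0.91, SE 0.34). This sgRNA was the least abundant of the gene and had the largest ratio of all 77. sgRNA 6 stood at 75.9 and 107.9 CPM (log2 ratio 0.50, SE 0.19) and sgRNA 2 at 84.9 and 108.5 CPM (log2 ratio 0.35, SE 0.18). For sgRNA 5 the values were 126.2 and 151.0 CPM (log2 ratio 0.26, SE 0.07). These 4 were each past a one-sided p of 0.05, with p-values from 0.0102 for sgRNA 5 to 0.0480 for sgRNA 2, and none passed after adjustment over all sgRNAs. Of these, 2 had a variance at the smallest value that the authors' method allows, sgRNA 5 in PRMT5hi and sgRNA 6 in PRMT5lo, where the error reflects read counting alone.

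The other 3 sgRNAs against HSD3B2 lay near 0 or on the other side. sgRNA 3 stood at 138.1 CPM in PRMT5hi and 150.2 CPM in PRMT5lo (log2 ratio 0.12, SE 0.15), and sgRNA 4 at 91.7 and 99.4 CPM (log2 ratio 0.12, SE 0.26). sgRNA 1, the most abundant of the gene, stood at 169.8 and 152.6 CPM (log2 ratio -0.15, SE 0.13) and was the only one lower in PRMT5lo. So 6 of 7 sgRNAs pointed to PRMT5lo, and at least as many did so for 99 genes (6.97%) in the library. The gene mean was 0.30 (SD 0.34), the 9th highest of 1420, and its combined p toward PRMT5lo was 0.00210 by Fisher's method, the 13th smallest (adjusted p = 0.214). Without sgRNA 7 the mean was 0.20, and without sgRNA 5 the p was 0.0160, so that in either case the gene no longer passed. It also did not pass when each sgRNA's variance was raised to at least the trend at its abundance (Fisher's method, p = 0.0144) or when sgRNAs were weighted by their precision (mean 0.21).

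The enzymes that activate and inactivate cortisol gave small values of the same sign. Of the sgRNAs against HSD11B1, 5 of 7 were more abundant in PRMT5lo, with a gene mean of 0.09 (SD 0.18). The lowest ratio came from sgRNA 4, at 82.7 CPM in PRMT5hi and 72.6 CPM in PRMT5lo, and the highest from sgRNA 7, at 124.6 and 151.0 CPM. For HSD11B2 it was 4 of 7, and the mean was 0.05 (SD 0.18). Here sgRNA 2 was lowest, at 156.4 and 132.0 CPM, and sgRNA 7 highest, at 104.5 and 127.5 CPM. The SDs of both genes were the smallest among the 11, and the largest ratio of either gene was 0.28. By Fisher's method the combined p toward PRMT5lo was 0.231 for HSD11B1 and 0.383 for HSD11B2. The SEs of the means over libraries were 0.07 and 0.09, and whether the genes differ from each other was not tested.

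Among the HSD17B enzymes, HSD17B1 had ratios in both directions that cancelled. sgRNA 4 stood at 22.3 CPM in PRMT5hi and 32.5 CPM in PRMT5lo (log2 ratio 0.52, SE 0.38), and sgRNA 6 at 35.3 and 24.2 CPM (log2 ratio -0.52, SE 0.37). These were the 2 least abundant sgRNAs of the gene. The most abundant, sgRNA 3, stood at 202.2 and 187.8 CPM (log2 ratio -0.11, SE 0.17). The gene mean was 0.0021 (SD 0.31).

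HSD17B11 leaned to PRMT5lo in 4 of 7 sgRNAs and HSD17B14 to PRMT5hi in 5 of 7, and neither gene passed. For HSD17B11, sgRNA 5 went from 53.2 CPM in PRMT5hi to 73.8 CPM in PRMT5lo (log2 ratio 0.46, SE 0.23) and sgRNA 3 from 85.2 to 106.3 CPM (log2 ratio 0.32, SE 0.15), both past a one-sided p of 0.05. The lowest ratio, of sgRNA 7, was -0.23, at 130.0 and 110.8 CPM. Its mean of 0.10 (SD 0.25) had a one-sided p of 0.135 from Fisher's method (adjusted p = 0.782). For HSD17B14, sgRNA 1 stood at 90.7 CPM in PRMT5hi and 59.4 CPM in PRMT5lo, 1.52-fold lower in PRMT5lo, with a log2 ratio of -0.60 and an SE of 0.29. The 2 sgRNAs of the opposite sign were sgRNA 5, at 107.2 and 123.8 CPM (log2 ratio 0.21, SE 0.08, past a one-sided p of 0.05), and sgRNA 4, at 98.9 and 115.2 CPM (log2 ratio 0.22, SE 0.30). The mean of HSD17B14 was -0.11 (SD 0.28), with a p of 0.185 toward PRMT5hi by Fisher's method. Weighting by precision gave 0.012, while the median was -0.14 and the mean with an sgRNA left out ran from -0.17 to -0.03.

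HSD17B10 differed from the other 10 genes in the low abundance of its sgRNAs in both populations. Its sgRNAs averaged 22.5 CPM in PRMT5hi and 18.4 CPM in PRMT5lo, while the averages of the other 10 genes lay between 72.5 and 137 CPM. By mean log2(CPM + 1) over both populations it stood at 3.49 (SD 1.93 over sgRNAs), the 2nd lowest of 1420 genes, where the median gene stood at 6.39. RRM1, a subunit of ribonucleotide reductase, was lowest at 3.02, and RRM2, the other subunit, followed HSD17B10 at 3.58. Of the 7 sgRNAs, 5 were under 20 CPM on average over the populations, and these were all such sgRNAs among the 77. In the whole library 336 targeting sgRNAs (3.38%) and 3 of 500 controls were this low, and 5 genes (0.352%) had at least 5 of them. Loss of sgRNAs in culture and their starting level in the library cannot be told apart, since both populations were taken after the culture.

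The 7 sgRNAs against HSD17B10 did not form an even group. sgRNA 3 had 0 reads in both populations, which allows up to 0.186 CPM in PRMT5hi and 0.157 CPM in PRMT5lo, and 1 other of the 9929 targeting sgRNAs (0.0201% in all) was absent in the same way. sgRNA 6 stood at 6.61 CPM in PRMT5hi and 5.01 CPM in PRMT5lo, or 26.7 and 23.9 reads per library. sgRNA 5 stood at 7.99 and 8.29 CPM. sgRNA 2 gave 13.9 and 8.14 CPM, sgRNA 1 18.5 and 15.8 CPM, and sgRNA 4 25.1 and 17.4 CPM. Only sgRNA 7, at 85.5 and 74.3 CPM, lay close to the median of 85.0 CPM in PRMT5hi and 84.9 CPM in PRMT5lo over all targeting sgRNAs. What sets it apart from the other 6 was not tested.

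The PRMT5 sort could resolve little for HSD17B10 at these depths. Its mean log2 ratio of -0.27 (SD 0.27), or 1.21-fold higher abundance in PRMT5hi, was the 30th lowest of 1420, and 5 of the 6 sgRNAs with reads were more abundant in PRMT5hi. This mean, its SD and its rank count sgRNA 3, which had no read, as a ratio of 0. Over the 6 sgRNAs with reads the mean was -0.32. Its SE over libraries, 0.31, was nearly as large and was the largest of the 11 genes. Toward PRMT5hi the combined p was 0.246 by Fisher's method (adjusted p = 0.807), and it was 0.200 without sgRNA 3. The largest ratio, -0.70 for sgRNA 2, had an SE of 0.87. Its 95% interval, centred on the ratio of the fractions rather than of CPM + 1, ran from -2.89 to 1.36. For sgRNA 7, the only well-represented one, the ratio was -0.20 (SE 0.23).

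The 3 SRD5A genes gave means of different sign. SRD5A2 leaned to PRMT5hi, with 5 of 7 sgRNAs more abundant there and a mean of -0.17 (SD 0.20), 1.13-fold. sgRNA 4 stood at 148.0 CPM in PRMT5hi and 106.9 CPM in PRMT5lo (log2 ratio -0.47, SE 0.19), and sgRNA 5 at 183.2 and 154.9 CPM (log2 ratio -0.24, SE 0.10), both past a one-sided p of 0.05. In the other direction, sgRNA 1 went from 181.0 to 189.6 CPM, a log2 ratio of 0.07 with an SE of 0.04 and a one-sided p of 0.0367 toward PRMT5lo. That ratio is one of the 3 smallest of the gene in size, and its variance was at the smallest possible value in both populations, as it was for sgRNAs 3 and 6. The variances of sgRNAs 4 and 5 were at that value in PRMT5hi. The p of SRD5A2 from Fisher's method was 0.0335 toward PRMT5hi (adjusted p = 0.473), and it was 0.112 without sgRNA 4. With sgRNAs weighted by precision, the mean was 0.0023. SRD5A2 had the highest mean abundance of the 11 genes, 6.98 on the log2(CPM + 1) scale.

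The other 5-alpha reductase, SRD5A1, gave a mean of -0.04 (SD 0.26), and 4 of 7 sgRNAs were more abundant in PRMT5hi. It ranged from sgRNA 1, at 175.3 CPM in PRMT5hi and 138.5 CPM in PRMT5lo (log2 ratio -0.34, SE 0.31), to sgRNA 5, at 22.0 and 30.8 CPM (log2 ratio 0.47, SE 0.31). No sgRNA of the gene passed a one-sided p of 0.05. SRD5A3, the polyprenol reductase, had the 2nd highest mean of the 11, 0.17 (SD 0.27), with 4 of 7 sgRNAs more abundant in PRMT5lo and a one-sided p of 0.302 from Fisher's method (adjusted p = 0.934). Its highest ratios came from its 2 least abundant sgRNAs. sgRNA 7 stood at 27.6 and 40.2 CPM (log2 ratio 0.53, SE 0.51) and sgRNA 5 at 25.4 and 35.4 CPM (log2 ratio 0.46, SE 0.46). The lowest ratio, -0.14, was that of sgRNA 2, at 129.7 and 117.8 CPM.

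STS had the widest spread among the 11 genes, with sgRNAs far out in both directions. sgRNA 4 stood at 69.8 CPM in PRMT5hi and 43.0 CPM in PRMT5lo, 1.61-fold higher in PRMT5hi (log2 ratio -0.69, SE 0.21, 95% interval -1.32 to -0.08). This interval left out 0, while the two-sided p from the t test of the fractions was 0.0592. sgRNA 5 stood at 129.3 and 97.3 CPM, 1.33-fold higher in PRMT5hi (log2 ratio -0.41, SE 0.05, 95% interval -0.52 to -0.29), with a one-sided p of 8.0e-05 and the adjusted two-sided p of 0.0793 given above. sgRNA 7 had the same sign, at 68.0 and 56.6 CPM (log2 ratio -0.26, SE 0.22). Against these 3, the other 4 sgRNAs were more abundant in PRMT5lo. The largest of them was sgRNA 1, at 36.6 CPM in PRMT5hi and 58.1 CPM in PRMT5lo, 1.57-fold higher in PRMT5lo (log2 ratio 0.65, SE 0.28). sgRNA 3 stood at 59.3 and 73.6 CPM (log2 ratio 0.31, SE 0.31), sgRNA 6 at 99.95 and 114.2 CPM (log2 ratio 0.19, SE 0.21) and sgRNA 2 at 74.2 and 78.3 CPM (log2 ratio 0.08, SE 0.13).

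The mean of STS was therefore near 0, -0.02 with an SD of 0.46, which was the 62nd largest SD among the 1420 genes. Its p from Fisher's method toward PRMT5hi was nevertheless 0.00508, the 26th smallest (adjusted p = 0.277), and 38 genes (2.68%) had a p under 0.01 in that direction whatever their mean. That p came from sgRNA 5, since it was 0.413 without it. The variance of sgRNA 5 was at the smallest possible value in both populations, which was the case for 4 of the 77 sgRNAs and 241 of all targeting ones. With sgRNAs weighted by precision, the mean became -0.31 and STS passed the legend's limits toward PRMT5hi. The median of its ratios was 0.08.

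Across the 77 sgRNAs, far ratios went with low abundance. The SD of the log2 ratio was 0.43 over the 13 sgRNAs under 40 CPM, 0.34 over the 29 from 40 to 100 CPM and 0.21 over the 35 above that, and over all targeting sgRNAs it was 0.45, 0.29 and 0.22. The 5% and 95% points of the ratios were -0.51 and 0.51 over the 77, and -0.48 and 0.46 over all targeting sgRNAs. The share of all targeting sgRNAs with a ratio beyond 0.5 in either direction was not counted. Members with such a ratio are therefore listed only as a description. These were HSD3B2 sgRNAs 6 and 7, STS sgRNAs 1 and 4, HSD17B1 sgRNAs 4 and 6, HSD17B10 sgRNAs 2 and 4, HSD17B14 sgRNA 1 and SRD5A3 sgRNA 7. A variance at the smallest possible value also went with small p-values. It was found in 1 or both populations for 7 of the 12 sgRNAs past a one-sided p of 0.05 and for 25 of all 77. Over the library it was found for 2680 of the 9929 targeting sgRNAs. At a given difference a smaller variance gives a smaller p by construction. With every variance raised to at least the trend at its abundance, 2 members counted toward PRMT5lo in place of 8. Toward PRMT5hi, 3 counted in place of 4. The share over all targeting sgRNAs was not counted at this setting.

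By mean abundance on the log2(CPM + 1) scale the genes ran from HSD17B10 at 3.49 through HSD17B1 at 5.87 (SD 1.03), HSD17B11 at 6.17 (SD 0.66), STS at 6.18 (SD 0.47), SRD5A3 at 6.19 (SD 0.88) and SRD5A1 at 6.47 (SD 0.91) to HSD3B2 at 6.68 (SD 0.64), HSD11B2 at 6.72 (SD 0.42), HSD17B14 at 6.82 (SD 0.38), HSD11B1 at 6.89 (SD 0.50) and SRD5A2 at 6.98 (SD 0.44). Neighbors from HSD17B1 upward differed by less than the SD over their sgRNAs. Control sgRNAs averaged 6.87 (SD 0.75).

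Further genes were picked for steroid synthesis, action or removal, and 14 as short-chain superfamily relatives of the HSD enzymes. Among all 37 of these genes, with 257 sgRNAs, none passed the legend's limits in either direction. Their median mean log2 ratio was -0.0092, and 17 of 37 means were above 0. At a one-sided p under 0.05 from Fisher's method, 7 of the 37 counted toward PRMT5lo (8.59% of all genes) and 5 toward PRMT5hi (9.30% of all genes). The combined p and the mean could point apart. UGT2B28, which attaches glucuronide, counted toward PRMT5lo with a mean of -0.05 and 5 of 6 sgRNAs more abundant in PRMT5hi, and UGT2B15 counted toward PRMT5hi with a mean of 0.03. Of the 5 steroidogenic cytochromes and POR, which passes electrons to CYP17A1 and CYP19A1, POR had the highest mean, 0.20 (SD 0.20, adjusted p = 0.562 by Fisher's method), with 6 of 7 sgRNAs more abundant in PRMT5lo. CYP11B1, which makes cortisol, had the lowest at -0.0092 (SD 0.27). The aldo-keto reductases AKR1C1 and AKR1C3, which also reduce steroid ketones, had means of -0.05 (SD 0.19) and -0.07 (SD 0.32). Fisher's method gave AKR1C3 a p of 0.00782 toward PRMT5hi (adjusted p = 0.317), and 4 of its 7 sgRNAs were more abundant in PRMT5lo.

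Enzymes that attach sulfate or glucuronide to steroids, the sulfate step being the reverse of the STS reaction, ranged from -0.09 (SD 0.31) for the estrogen sulfotransferase SULT1E1 to 0.07 (SD 0.16) for SULT2B1, over 7 genes with a median of -0.03. Among the steroid receptors and the carrier SHBG, 8 genes with a median of -0.06, the extremes were the progesterone receptor PGR at 0.15 (SD 0.39, Fisher's method, p = 0.00275 toward PRMT5lo, adjusted p = 0.232) and the estrogen receptor ESR2 at -0.14 (SD 0.17, p = 0.0135 toward PRMT5hi, adjusted p = 0.401). Of 14 further dehydrogenases and reductases of the same short-chain superfamily as the HSD enzymes, the carbonyl reductase CBR3 had the lowest mean, -0.21 (SD 0.18, adjusted p = 0.489 toward PRMT5hi by Fisher's method), and DHRS9 the highest, 0.14 (SD 0.46). The median of these 14 was -0.0079. HSD3B2 thus had a larger mean than any of the 37, a comparison of values with no test.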

How the data were processed

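Reads were matched to sgRNA sequences by the authors, counted, and compared between populations with CB2. FastQC and hg38 are named in the submitters' processing notes, with versions not given in the sources used here. CPM values per sgRNA, averaged over 4 libraries per population, were deposited by the authors. They also deposited a fraction of reads per sgRNA with its variance over libraries. Their own ratios, scores and p-values, and their gene table, were not used.

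The difference of the fractions was divided by its standard error and referred to a t distribution with Satterthwaite degrees of freedom, as CB2 does. One-sided p-values were combined per gene by Fisher's method. Benjamini-Hochberg adjustment covered 10429 sgRNAs or 1420 genes. The SE of a log2 ratio follows from the variances of both fractions. Depth was recovered from sgRNAs at the binomial variance, whose read totals were whole within 0.05 reads for 100% of them. Zero reads were read as fewer than 3. Gene positions are from RefSeq, matched by symbol for 11 of 11 genes. Tests ran in Python 3.11.15 with SciPy 1.17.1 and were tested on simulated data.

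The members and gene lists were chosen with earlier results of these data known. All 11 genes are named, with their highest and lowest sgRNAs. All sgRNAs are given for HSD3B2, HSD17B10 and, chosen after its values were seen, STS. In each further list the highest and lowest genes are named. Alternatives were other pseudocounts, a minimum of 20 CPM, centring, medians, weighting, Stouffer's method, other variances, limits and left-out sgRNAs. A ratio without pseudocount was added after the data were seen.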

Additional observations from a re-analysis of the deposited data

How the results depend on the processing

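Over 187 pairs of a gene and an alternative, 169 kept the direction of the mean and its side of the limits in the plot's legend. That count is partly fixed in advance. Stouffer's method, the variance trend and the normal distribution change p-values only, so no mean could change direction there. CPM + 5, CPM + 10, centring, medians and weighting change means only. A gene with a p above 0.01 could therefore not be called under any of them. The minimum of 20 CPM removed sgRNAs of HSD17B10 alone. HSD3B2, the 1 gene called toward PRMT5lo, was no longer called with precision weighting (mean 0.21) or with variances of at least the abundance trend (mean 0.30, Fisher's method p = 0.0144). Nor was it called at a p under 0.001, the limit that the study's methods give under the name PRMT5lo. It was also not called at an adjusted p under 0.05 or 0.10 (count 0 each). With each sgRNA left out in turn its mean ran from 0.20 to 0.38 and the count of called genes from 0 to 1. Toward PRMT5hi the count of 0 became 1, STS, with precision weighting (mean -0.31) and without a limit on the mean. The count of 8 sgRNAs past a p of 0.05 toward PRMT5lo became 2 with the variance trend. With adjustment over all sgRNAs, this count and the count of 4 toward PRMT5hi became 0. Means near 0 changed sign. HSD17B1 (0.0021) gave -0.0088 when centred on controls, -0.0034 with weighting, and -0.085 to 0.090 with an sgRNA left out. SRD5A1 ran from -0.12 to 0.015. STS gave 0.077 as a median and ran from -0.13 to 0.094 with an sgRNA left out. HSD17B14 (-0.11) and SRD5A2 (-0.17) changed sign with weighting only, to 0.012 and 0.0023. Weighting favors sgRNAs at the smallest variance by construction. Over all genes, the 10 calls toward PRMT5lo ran from 2 (variance trend) to 20 (normal distribution) and the 12 toward PRMT5hi from 5 to 26. With CPM + 10 they were 4 and 9, and with medians 13 and 7. No paired analysis was possible because the deposited values are pooled over the libraries of a population, and for the same reason no library could be left out.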
